A study of Mus musculus with 6 samples.

Results

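The genes described here encode amino acid transporters of the plasma membrane and the lysosome, grouped by the transport system they serve. Members were the rows of the deposited gene count table whose symbol begins with Slc1a, Slc7a, Slc36a, Slc38a or Slc43a followed by a number, together with Slc3a1 and Slc3a2; the rule found 41 of 56792 rows. Not every gene of these families was analysed here. The rule matches symbols and uses no measured value.

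C2C12 is a mouse myoblast line, labelled WT, whose cells fuse into myotubes when serum is lowered. RNA sequencing compared 3 untreated libraries with 3 libraries from cells given 1 µM lenvatinib, all from cells differentiated for 4 days in medium with 2% horse serum. Lenvatinib, used against several cancers, blocks signaling of receptors for VEGF, FGF and other growth factors by inhibiting their kinase activity. The labels do not state whether the libraries came from separate cultures, whether the untreated cells received solvent, or when the drug was added, so the spread behind each p-value is that among the libraries and may be purely technical. All values refer to 1 cell line.

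Amino acid carriers are classed by substrate and by ion coupling. Sodium-coupled carriers such as those of systems A and XAG- concentrate amino acids inside the cell, and exchangers then trade some of these for others, among them leucine and cystine. Several SLC7 exchangers are light chains that reach the cell surface only when joined to a heavy chain, Slc3a2 or Slc3a1. In muscle, imported leucine and arginine feed protein synthesis through the growth kinase complex mTORC1, and several carriers are transcribed more when the amino acid shortage factor ATF4 is active.

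Library totals ranged from 24566768 to 32406563 counts, and the members held 38966 to 52242 of them. The labelled cell type was checked against 8 markers of differentiating muscle (Myog, Myod1, Myh3, Mymk, Des, Ckm, Tnnt3 and Actc1), which summed to 14039 to 14506 CPM without and 14684 to 14762 CPM with lenvatinib; 5 of them rose and Des fell. CPM is a gene's count scaled to the library total after TMM adjustment. Of 6 markers of proliferating cells 4 rose, with sums of 273 to 309 and 327 to 339 CPM. Of 6 fibroblast markers, 4 of them tested, 1 rose and 2 fell, with sums of 376 to 396 and 334 to 355 CPM. Macrophage markers summed to 6.46 to 7.03 and 5.61 to 5.85 CPM. Of these 6 markers 3 were tested and 1 fell, and Adgre1 alone was at 0 counts in every library. Endothelial markers summed to 0.47 to 0.66 and 0.767 to 1.43 CPM with Kdr at 0 counts in the untreated libraries. Adipocyte markers summed to 16.4 to 19.3 and 10.4 to 11.5 CPM, nearly all from Cebpa, which fell, while Plin1 was at 0 counts. Neuronal and glial markers summed to 0.695 to 0.827 and 0.216 to 0.695 CPM. By the test described below, 75% of the muscle markers, 66.7% of the proliferation markers and 75% of the tested fibroblast markers passed. The share was 33.3% for the tested macrophage markers and 28.2% over all tested rows. The part of these shifts in the results below was not tested.

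Of the 41 members 23 had enough counts for the test, and 6 rose, 6 fell and 11 did not pass with lenvatinib. The test was the quasi-likelihood test of edgeR with Benjamini-Hochberg adjustment over all 14989 rows tested, and an adjusted p under 0.05 was called. Over all tested rows 13.3% rose and 14.9% fell, 28.2% in all, against 26.1%, 26.1% and 52.2% of the tested members. Among rows with a mean of at least 5 CPM, 10 of 18 members (55.6%) were called, against 32.8% of all such rows. The member changes had no common direction, with a median log2 fold change of -0.0048 beside 0.0027 over all tested rows, and a median size of 0.20 beside 0.12. The groups did not overlap in 15 of the 23 tested members (65.2%), against 40.1% of all tested rows. Fewer cells with a transcript and less of it per cell cannot be told apart in these bulk libraries.

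**Figure D1:**
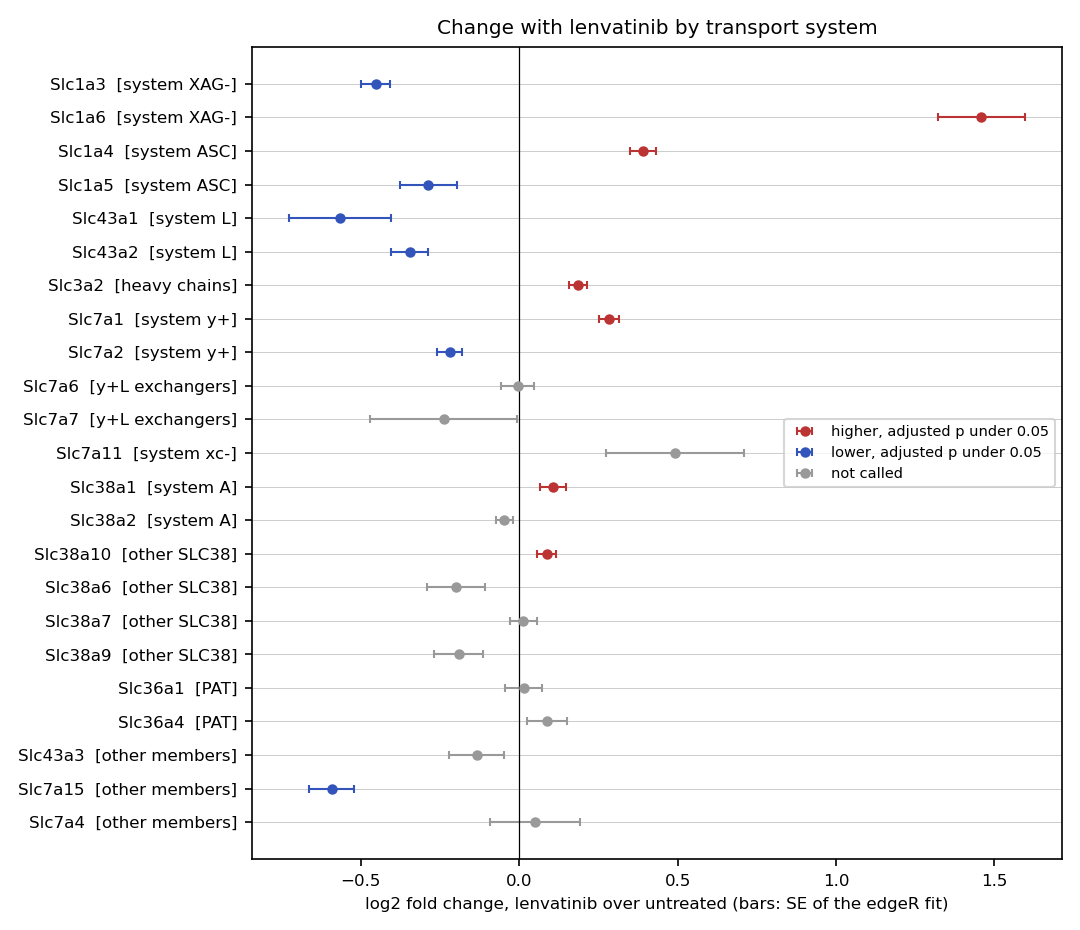
The log2 fold change, lenvatinib over untreated (horizontal axis), is shown for the 23 tested members in the order of their transport systems, with the SE of the edgeR fit as bars; red and blue points passed an adjusted p of 0.05 and grey points did not. Systems XAG-, ASC and y+ each have 1 called member on either side of 0, and Slc1a6 lies farthest out at 1.46. In system A, Slc38a1 was called higher, while Slc38a2 lay slightly below 0 and was not called.

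The 18 members without a test had from 0 to 35 counts over all 6 libraries. Slc1a1, Slc7a9, Slc7a10, Slc7a12, Slc36a3, Slc38a3, Slc38a5, Slc38a8 and Slc38a11 had 0 counts in every library, where 3 counts correspond to 0.0926 to 0.123 CPM per library. Floors of this kind cover counting error only, since the reads carry no molecular identifiers and copies of 1 molecule can be counted more than once. Slc7a13, Slc36a2, Slc1a7, Slc7a14 and Slc1a2 had 2, 2, 3, 4 and 5 counts in all, and Slc3a1, Slc7a3, Slc7a8 and Slc38a4 had 18, 23, 29 and 35. Thus both carriers of system N (Slc38a3 and Slc38a5, which move glutamine and histidine), the heavy chain Slc3a1 and its kidney light chains Slc7a9 and Slc7a13 were at or near the detection limit in these muscle cells.

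Levels between genes were compared per kilobase of the feature length deposited with each row; no source used here says how that length was derived. On this scale Slc38a2 was the most abundant member without lenvatinib, at 64.9 ± 0.75 CPM per kilobase (SD, n = 3), followed by Slc3a2 at 54.1 ± 0.367 and Slc38a10 at 26.4 ± 0.718. The means of Slc1a4 (13.6 ± 0.519) and Slc38a7 (13.2 ± 0.323) lay within their spread, though Slc1a4 was slightly higher in each untreated library. Slc7a2 (7.36 ± 0.236) and Slc7a6 (7.17 ± 0.363) did not differ beyond their spread. Slc7a1 lay between these pairs at 11.3 ± 0.219. With lenvatinib the means of Slc38a2 (62.8 ± 1.47 CPM per kilobase) and Slc3a2 (61.4 ± 1.10) came within their spread, but Slc38a2 stayed higher in each lenvatinib library. Slc1a4 reached 17.8 ± 0.525 with lenvatinib, above Slc38a7 at 13.3 ± 0.240. Among tested members the lowest was Slc7a11, at 0.106 ± 0.0259 without and 0.15 ± 0.0248 CPM per kilobase with lenvatinib.

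**Figure D2:**
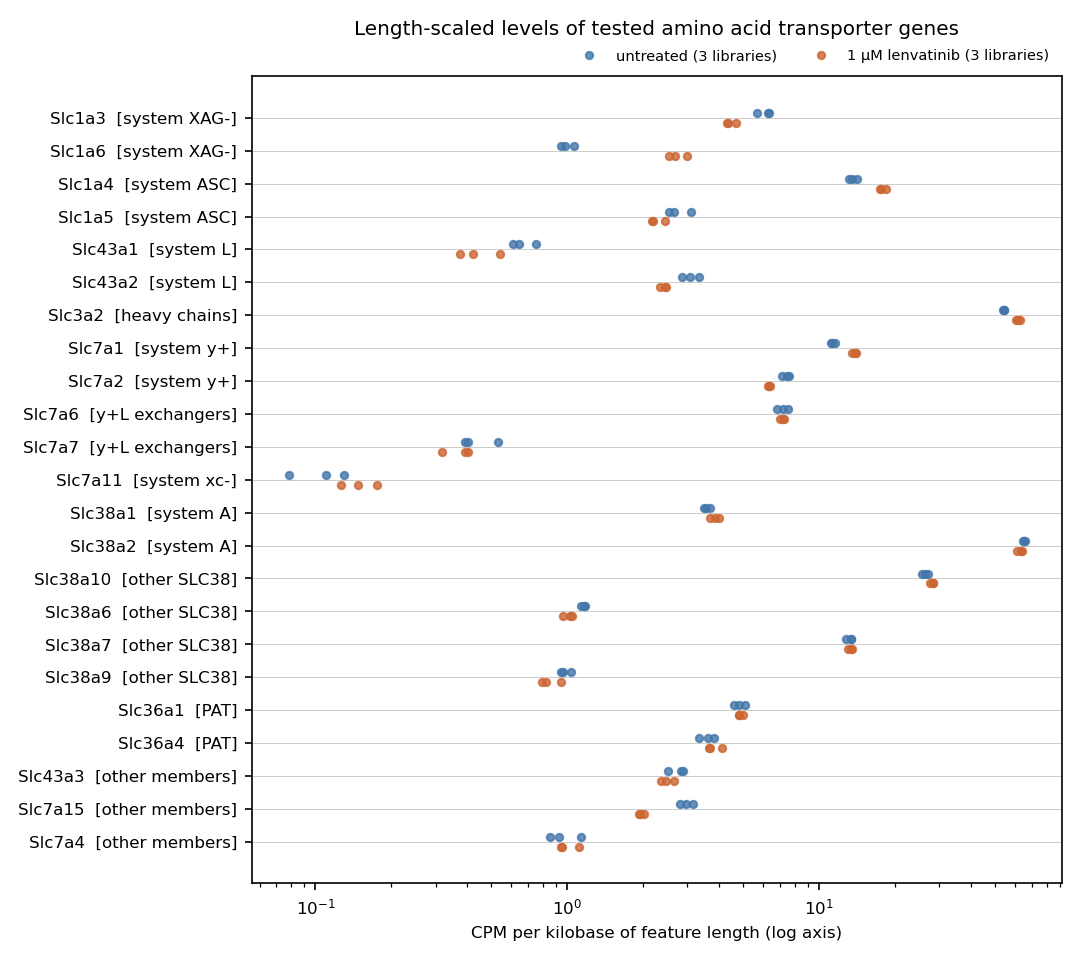
Each point is 1 library (blue, untreated; orange, 1 µM lenvatinib), placed by its CPM per kilobase of feature length on a log axis, for the 23 tested members by transport system. Slc38a2 and Slc3a2 stand above all other members in both groups, and Slc7a11 is lowest.

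Summed per kilobase over all members, the 2 system A carriers with a test and Slc38a4 held 29.4% ± 0.345 of the transporter signal without lenvatinib and 27.4% ± 0.338 with it (SD, n = 3). Heavy chains held 23.2% ± 0.132 and 25.3% ± 0.144, and system ASC 7.02% ± 0.141 and 8.24% ± 0.101. The system L carriers among the members held 1.62% ± 0.122 and 1.19% ± 0.0104. In each of these 4 systems the 3 lenvatinib libraries lay outside the range of the untreated ones, upward for the heavy chains and system ASC and downward for systems A and L. System y+ also separated, at 8.04% ± 0.191 and 8.27% ± 0.0887. So did the group of Slc7a4, Slc7a12, Slc7a14, Slc7a15 and Slc43a3, at 2.86% ± 0.0401 and 2.24% ± 0.0516. The summed signal itself was 230 to 235 CPM per kilobase without and 240 to 246 with lenvatinib. A share can therefore fall without a fall in its genes. These shares describe the make-up of the summed signal and were not tested.

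Promoters of the members were read from RefSeq tables of build GRCm38.p6, in windows of 250 bases before to 50 bases after the start; 31 of 41 members, 18 of them tested, had an entry. The ATF4 composite element was searched as TGATGNAA, an antioxidant response core as TGACNNNGC, an AP-1 site as TGANTCA and E-boxes as CACGTG and CAGCTG, on both strands; AP-1 and antioxidant matches can overlap. The ATF4 element was in the windows of Slc1a4, Slc7a11 and Slc7a7, 3 of the 18 tested members, against 4.51% of all genes with a window. CACGTG was in 4 of 18 against 8.09%, TGACNNNGC in 5 against 14.0%, CAGCTG in 4 against 18.3% and TGANTCA in 3 against 8.97%. A match describes letters in this window and is not a measured binding site.

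The 120 bases before the start are given for Slc7a11, which has a pair of ATF4-type matches, for Slc1a4 (with 4 bases after the start), which has such a match and rose, and for Slc1a6, which had the steepest rise. Matches are in capitals, TGATGNAA or its reverse complement in Slc7a11 and Slc1a4, and CAGCTG and CACGTG in Slc1a6. These positions are of GRCm38.p6 and cannot be compared with the deposited gene positions printed below, which do not match that build.
Slc7a11, chr3:50443614-50443733, minus strand: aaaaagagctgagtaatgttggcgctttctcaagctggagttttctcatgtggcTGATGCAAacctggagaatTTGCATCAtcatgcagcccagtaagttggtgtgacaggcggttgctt
Slc1a4, chr11:20332710-20332833, minus strand: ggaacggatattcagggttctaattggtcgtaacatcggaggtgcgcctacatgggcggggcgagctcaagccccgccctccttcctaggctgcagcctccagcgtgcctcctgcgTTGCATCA
Slc1a6, chr10:78780376-78780495, plus strand: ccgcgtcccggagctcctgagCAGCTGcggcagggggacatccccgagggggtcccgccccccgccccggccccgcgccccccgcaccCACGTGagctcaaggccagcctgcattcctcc
The matches of Slc7a11 begin 66 and 47 bases before the start and face each other on opposite strands. The match of Slc1a4 begins 4 bases before the start and runs into the first transcribed bases. In Slc1a6 CAGCTG begins 99 and CACGTG 32 bases before the start. Of these 3 genes Slc1a6 and Slc1a4 rose and Slc7a11 did not pass. Slc7a11 had only 32 to 61 counts per library, and its log2 fold change was 0.49 (SE 0.22), beside 0.39 (SE 0.04) for Slc1a4. Slc7a7, whose sequence is not printed, has ATF4-type matches that begin 141 and 1 bases before the start in 1 window. Its log2 fold change was negative, at -0.24 (SE 0.23), with 28 to 48 counts per library, and it did not pass. Whether an ATF4-type match goes with a rise was not tested.

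The acidic carriers of system XAG- take up glutamate and aspartate with sodium, and their 2 tested members moved in opposite directions. Slc1a6, known from cerebellar Purkinje neurons (chromosome 10, 78616330 to 78650599), was at 2.56, 2.27 and 2.36 CPM in the untreated libraries and at 6.46, 6.09 and 7.16 CPM with lenvatinib. All 3 treated libraries lay far above all untreated ones, and the transcript rose 2.75-fold (log2 fold change 1.46 ± 0.14, where the error is the SE from edgeR; adjusted p = 2.05e-11). Its size of change ranked 150 among the 14989 tested rows, and it was the only member past 2-fold, as were 408 called rows in all. Per kilobase it went from 0.997 ± 0.0603 to 2.73 ± 0.226 CPM, still below Slc1a3 at 4.44 ± 0.187.

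Slc1a3, a glutamate carrier of glia (chromosome 15, 8663608 to 8740248), was at 61.6, 61.1 and 55.4 CPM without the drug and at 42.1, 45.4 and 42.5 CPM with it. The groups did not overlap, and the transcript fell by 0.45 on the log2 scale (SE 0.05, adjusted p = 1.83e-10). Per kilobase the untreated level was 6.09 ± 0.355 CPM. The neuronal and glial marker genes Gfap, Rbfox3, Syp and Slc17a7 had 10, 1, 26 and 58 counts over all libraries, against 8324 for Slc1a3.

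System ASC exchanges alanine, serine, cysteine and other small neutral amino acids, and here too the related carriers diverged. Slc1a4 (chromosome 11, 20252180 to 20282713), which carries serine and alanine, was at 57.2, 54.5 and 53.0 CPM untreated and at 71.0, 70.3 and 74.3 CPM with lenvatinib. It rose 1.31-fold (0.39 ± 0.04, adjusted p = 2.49e-10), with every treated library above every untreated one. Slc1a5, the glutamine exchanger of growing cells (chromosome 7, 16515265 to 16532199), was at 11.1, 13.5 and 11.7 CPM and at 9.53, 10.7 and 9.57 CPM. It fell by 0.29 (SE 0.09, adjusted p = 0.0134), and the closest libraries were 11.1 CPM untreated and 10.7 CPM treated. Without untreated library 2, lenvatinib library 1 or lenvatinib library 3 Slc1a5 no longer passed (adjusted p = 0.142, 0.0547 and 0.0625 with edgeR).

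The log2 ratio of Slc1a5 to Slc1a4 per kilobase was -2.48, -2.13 and -2.30 in the untreated libraries and -3.02, -2.84 and -3.08 with lenvatinib. The ratio was lower in all 3 treated libraries, by 0.67 between the means. With 3 libraries a group a permutation test could not pass, so such ratios are given as values only.

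Cationic amino acids, arginine and lysine above all, enter through system y+. Slc7a1, its widely expressed carrier (chromosome 5, 148264220 to 148336714), was at 135, 131 and 131 CPM untreated and at 157, 164 and 162 CPM with lenvatinib. It rose 1.22-fold (0.28 ± 0.03, adjusted p = 9.13e-10). Slc7a2, an arginine carrier with a splice form of low affinity in muscle and liver (chromosome 8, 41315433 to 41375345), was at 68.6, 65.7 and 70.0 CPM and at 59.2, 58.6 and 57.9 CPM. The fall was 0.22 on the log2 scale (SE 0.04, adjusted p = 2.41e-05), and in neither gene did the groups overlap. The log2 ratio of Slc7a1 to Slc7a2 per kilobase was 0.64, 0.66 and 0.56 without and 1.07, 1.15 and 1.15 with the drug, or a mean of 1.54-fold against 2.18-fold more Slc7a1.

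**Figure D3:**
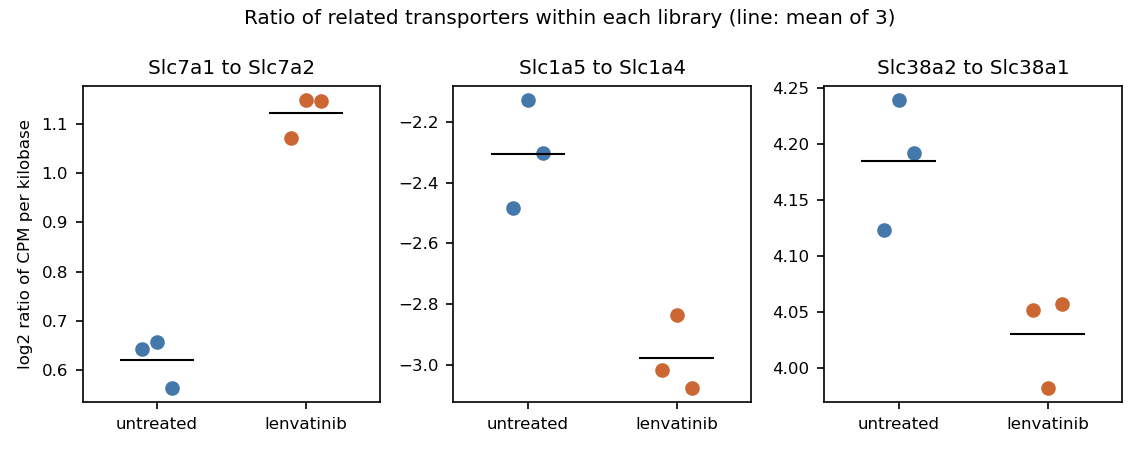
The log2 ratio of CPM per kilobase of 3 pairs of related carriers is plotted for each library, with the group mean as a line and a separate vertical axis for each pair. The ratio of Slc7a1 to Slc7a2 is higher, and the ratios of Slc1a5 to Slc1a4 and of Slc38a2 to Slc38a1 are lower, in all 3 lenvatinib libraries than in any untreated one.

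System L moves leucine and other large neutral amino acids. Its SLC43 carriers work without a heavy chain, and both fell. Slc43a2 (chromosome 11, 75422520 to 75468401) was at 29.2, 34.1 and 31.4 CPM untreated and at 25.2, 25.4 and 24.0 CPM with lenvatinib, a fall of 0.35 (SE 0.06, adjusted p = 1.13e-05). Slc43a1 (chromosome 2, 84669194 to 84693938) was at 3.49, 4.31 and 3.68 CPM and at 2.14, 2.41 and 3.09 CPM, a fall of 0.57 (SE 0.16, adjusted p = 0.00632). The treated libraries were lower throughout in both genes, but Slc43a1 had only 53 to 110 counts per library and missed the threshold without untreated library 2 or lenvatinib library 1 (adjusted p = 0.0507 and 0.0516 with edgeR). The light chain Slc7a8 had 2 to 6 counts per library and no test.

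The heavy chain Slc3a2, also called CD98hc, carries light chains of systems L, y+L and xc- to the cell surface (chromosome 19, 8684246 to 8700733). Its transcript was at 192, 191 and 189 CPM untreated and at 213, 216 and 221 CPM with lenvatinib. The spread within groups was small, and the gene rose 1.14-fold (0.18 ± 0.03, adjusted p = 1.88e-06).

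The 3 tested light chains of systems y+L and xc- were not called. Slc7a6, which exports cationic amino acids in exchange for neutral ones and sodium, was at 36.6, 34.8 and 33.0 CPM untreated and at 35.2, 33.9 and 34.9 CPM with lenvatinib (-0.0048 ± 0.05, adjusted p = 0.961). The second y+L light chain, Slc7a7, was near 1.4 CPM, at 1.13 to 1.88 CPM over all libraries (adjusted p = 0.493); its span shares 232 bases with the far more abundant Oxa1l on the opposite strand, and without a known strand setting reads of both cannot be told apart there. Slc7a11 is the cystine and glutamate exchanger that supplies cysteine for glutathione, and its pair of ATF4-type promoter matches is printed above. It was at 1.84, 1.57 and 1.11 CPM without and at 2.10, 2.49 and 1.79 CPM with lenvatinib. The groups overlapped, and the difference of 0.49 ± 0.22 did not pass (adjusted p = 0.0908); without untreated library 1 it was 0.66 (adjusted p = 0.0459 with edgeR), and without untreated library 3 it was 0.31 (adjusted p = 0.393 with edgeR).

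**Figure D4:**
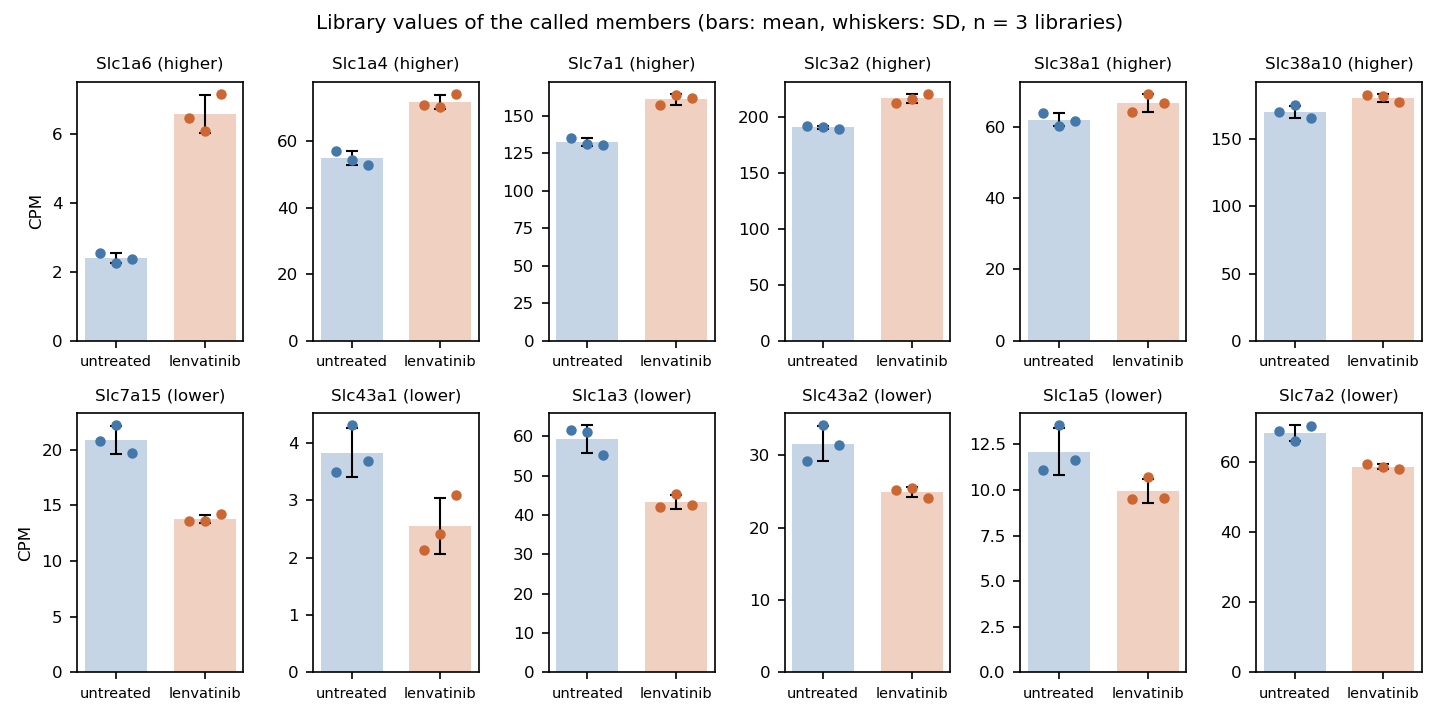
CPM of the 12 called members are shown by library (points) with the group mean (bars from 0) and SD (whiskers, n = 3); the upper row holds the 6 that rose and the lower row the 6 that fell, each ordered by the size of its change. Slc1a6 goes from about 2.4 to 6.57 CPM, while Slc38a1 and Slc38a10 differ by little more than their whiskers.

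System A carries small neutral amino acids such as alanine and glutamine together with sodium. Slc38a2, the carrier that cells induce on amino acid shortage and in hypertonic medium, had the highest level of all members (chromosome 15, 96585273 to 96597611). Its libraries were at 568, 581 and 573 CPM untreated and at 541, 557 and 567 CPM with lenvatinib. The treated values were all lower, by a narrow margin, and the difference did not pass (-0.05 ± 0.03, adjusted p = 0.189). Slc38a1, a glutamine carrier of the same family, was at 63.8, 60.3 and 61.5 CPM and at 64.0, 69.1 and 66.7 CPM. It passed just under the threshold (0.11 ± 0.04, adjusted p = 0.045), and no longer without untreated library 2 or 3 or lenvatinib library 2 or 3 (adjusted p = 0.158, 0.112, 0.211 and 0.101 with edgeR), nor with DESeq2 (adjusted p = 0.131) or limma-voom (adjusted p = 0.063). The log2 ratio of Slc38a2 to Slc38a1 per kilobase was 4.12, 4.24 and 4.19 in the untreated and 4.05, 3.98 and 4.06 in the lenvatinib libraries. Slc38a4, also of system A, had 3 to 10 counts per library.

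The other SLC38 members include carriers of the lysosome. Slc38a9, a lysosomal arginine sensor of mTORC1, was at 16.2, 17.3 and 15.8 CPM untreated and at 13.3, 13.8 and 15.8 CPM with lenvatinib, and did not pass (-0.19 ± 0.08, adjusted p = 0.0565). Without lenvatinib library 3, the highest treated one, it did (adjusted p = 0.0132 with edgeR). Slc38a7, which lets glutamine and asparagine out of the lysosome, was at 55.5, 55.3 and 53.1 CPM and at 55.5, 53.9 and 55.8 CPM (0.01 ± 0.04, adjusted p = 0.865). Its groups overlapped. Slc38a10 was at 169.5, 175 and 165 CPM and at 182, 182 and 177 CPM and rose 1.06-fold (0.09 ± 0.03, adjusted p = 0.0266). This small rise was lost without untreated library 1 or 3 or lenvatinib library 1 or 2 (adjusted p = 0.0649, 0.147, 0.0773 and 0.0879 with edgeR) and with DESeq2 (adjusted p = 0.0655). Slc38a6 ranged from 9.63 to 10.0 CPM and from 8.14 to 8.84 CPM, without overlap, and did not pass (-0.20 ± 0.09, adjusted p = 0.106).

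The SLC36 family is named for proton-coupled carriers, which use the acid of the lysosome or the gut lumen to move small amino acids. Members were placed here by family, and whether each is proton-coupled was not examined. Neither tested one was called. Slc36a1, a lysosomal carrier of proline and glycine, was at 25.9, 27.3 and 28.7 CPM untreated and at 27.1, 27.1 and 28.3 CPM with lenvatinib (0.01 ± 0.06, adjusted p = 0.901). Slc36a4 was at 25.3, 22.2 and 24.0 CPM and at 27.3, 24.3 and 24.5 CPM (0.09 ± 0.06, adjusted p = 0.337). In both genes the groups overlapped.

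Of the 3 remaining tested members 1 fell. Slc7a15, an SLC7 gene of the light chain type (chromosome 12, 8578483 to 8649066), was at 20.8, 22.2 and 19.7 CPM untreated and at 13.6, 13.6 and 14.2 CPM with lenvatinib. It fell by 0.59 (SE 0.07, adjusted p = 6.65e-09), with a wide gap between the groups. Its span meets that of 5033421B08Rik on the opposite strand, which had 64 counts in all against 2818 for Slc7a15. Slc43a3, which despite its family carries purine nucleobases, was at 12.8, 11.2 and 12.6 CPM and at 11.8, 10.5 and 11.0 CPM (adjusted p = 0.259). Slc7a4, for which no amino acid transport is established, was at 3.58 to 4.74 CPM and at 3.95 to 4.66 CPM (adjusted p = 0.846), and its span shares 5783 bases with P2rx6 on the opposite strand.

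Genes around these carriers were read from 4 further lists. Of 24 ATF4 and amino acid response genes 12 rose, 2 fell and 10 did not pass, with a median log2 fold change of 0.12 beside 0.0027 over all tested rows. Atf4 itself rose from 338 ± 3.81 to 405 ± 3.89 CPM (0.26 ± 0.03, adjusted p = 1.57e-10), the mitochondrial folate enzyme gene Mthfd2 by 0.29, the serine synthesis gene Psph by 0.34 and the proline synthesis gene Aldh18a1 by 0.21, while the transcription factor gene Cebpb fell by 0.36. Slc3a2, Slc7a1, Slc1a4, Slc1a5, Slc7a11 and Slc38a2 are counted among the genes that ATF4 can induce; of these the first 3 rose, Slc1a5 fell, and Slc7a11 and Slc38a2 did not pass.

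Of 35 tested genes listed for amino acid sensing and mTORC1, 4 rose, 9 fell and 22 did not pass (median -0.04). These counts give no direction of mTORC1 activity, which was not tested. Rragd, a Rag GTPase of the lysosome, rose from 13.8 ± 0.303 to 23.9 ± 1.81 CPM (0.80 ± 0.07, adjusted p = 2.19e-12). The leucine sensor gene Sesn2 rose by 0.43, and its relative Sesn3 fell by 0.38, Mtor by 0.22 and Fnip2, a partner of folliculin, by 0.37 on the log2 scale.

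Amino acid carriers of other families showed 3 higher and 5 lower among 20 tested (median -0.06). The mitochondrial carrier gene of basic amino acids, Slc25a29, rose by 0.44, and the mitochondrial serine carrier relative Sfxn3 fell by 0.33. Slc6a17 and Slc6a19, neutral amino acid carriers near 9 CPM, fell by 0.45 and 0.37, and the creatine carrier gene Slc6a8 fell by 0.13. Among 21 tested enzymes of glutamine, glutamate, glutathione and branched-chain amino acids 3 rose and 5 fell (median -0.02). Gclc and Gclm, the subunits of the enzyme that starts glutathione synthesis, rose by 0.40 and 0.27; Bcat1, the cytosolic branched-chain transaminase, rose by 0.30, whereas the mitochondrial Bcat2 fell by 0.23 and Mccc1, of leucine breakdown, by 0.30. For these 3 lists the share of called genes, 37.1%, 40.0% and 38.1%, stood beside 28.2% over all tested rows, and for the ATF4 list it was 58.3%.

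**Figure D5:**
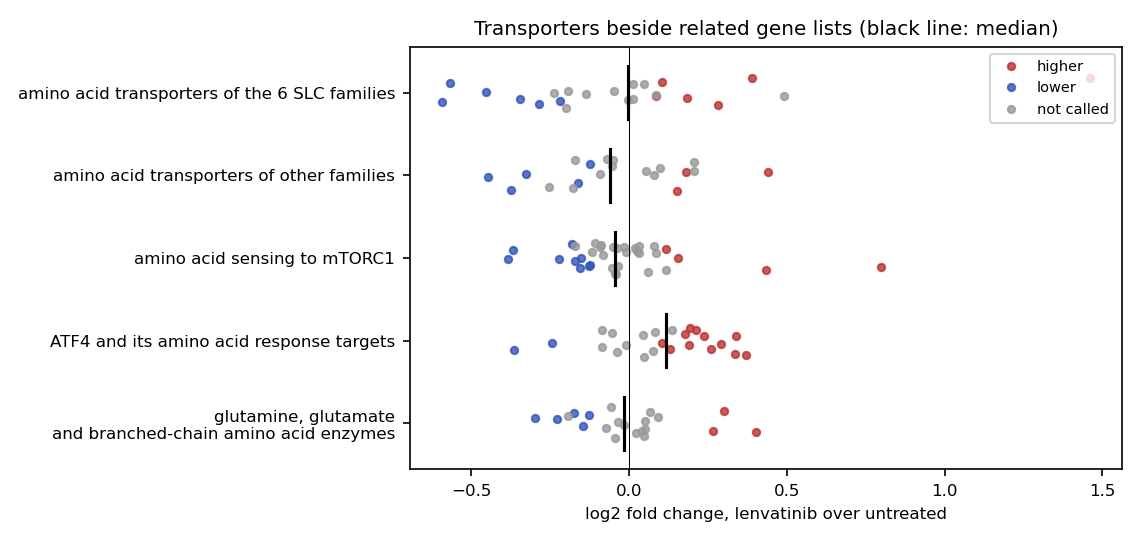
Each point is the log2 fold change of 1 tested gene, lenvatinib over untreated, for the transporters and the 4 related lists (red, higher; blue, lower; grey, not called), with the list's median as a black line and a random vertical offset. The median of the ATF4 list lies at 0.12, and those of the other lists lie between -0.06 and 0.00 (transporters -0.0048).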

How the data were processed

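The authors deposited 1 table of raw read counts per gene row (unit counts, not normalized) for 6 libraries, 3 untreated and 3 treated with lenvatinib; groups and replicate numbers came from the sample titles. Per the labels' protocols reads were aligned with Hisat2 2.0.1, and the tools named per the submitters' processing notes are HTSeq 0.6.1 with build mm10; no source used here gives the strand setting or the annotation release. The deposited feature length in bases (unit other) scaled levels between genes. Positions are printed as deposited, without a build: all 41 members were found in GENCODE M21 of GRCm38, and 1 had the same start and end there. The deposited gene positions thus do not match GRCm38, the build named mm10 in the notes. They cannot be set against the promoter positions, which are of GRCm38.p6. No member row was longer than its gene's span.

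Rows were kept by filterByExpr (minimum count 10, total 15), scaled with TMM and tested with edgeR 4.0.16 (robust glmQLFit, glmQLFTest; R 4.3.3) with Benjamini-Hochberg adjustment over 14989 rows. The script was tested on simulated data. CPM, fold changes and SEs (from the F statistic) were computed here. Replicates of a group differed by a chi-square of 2.78 to 5.6 per degree of freedom, above sampling noise. Same-numbered libraries did not deviate together (correlations -0.0775 to 0.0283 over 10839 genes), so numbers were not treated as pairs.

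Every member was named; values per library are given for called members and for uncalled ones of at least 20 CPM, and for a few others chosen after their values were seen. From the other lists up to 5 called genes with the smallest p were named. Members and lists were chosen with earlier results of these data known. The 16 alternatives comprised other scalings, filters, thresholds and tests (DESeq2 1.42.0, voom of limma 3.58.1), the replicate block, wide rows left out, and each library left out. A planned ratio of Slc7a8 to another system L gene was not computed, since that gene was not analysed here.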

Additional observations from a re-analysis of the deposited data

How the results depend on the processing

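Under all 16 alternatives 8 of the 12 called members (Slc1a3, Slc1a4, Slc1a6, Slc3a2, Slc43a2, Slc7a1, Slc7a2 and Slc7a15) stayed called in the same direction wherever they were tested; the filter of 5 CPM removes Slc1a6. Slc1a5, Slc43a1, Slc38a1 and Slc38a10 lost the call under 4, 2, 8 and 6 alternatives; the cause was not tested. Members called higher numbered 4 to 6 and members called lower 4 to 6 over the alternatives, and all rows called 3049 to 4276. Leaving out 1 library gave 4 to 6 members higher and 4 to 6 lower, and 3618 to 3797 rows. No called value changed sign. The count of ATF4 genes called lower went from 2 to 1 with DESeq2 and at an adjusted p under 0.01, and ranged from 1 to 2 without 1 library; other list counts stayed within 1.5-fold. With the replicate block 5 members were higher, 6 lower and 4134 rows were called, and Slc38a1 missed the threshold (adjusted p = 0.062 with edgeR). Whether same-numbered libraries were handled together is not known. Slc38a9 passed with the filter of 5 CPM (adjusted p = 0.0481). Without length scaling system A held 40.5% of the untreated transporter signal in place of 29.4%, and heavy chains 12.2% in place of 23.2%. Members under about 5 CPM had few counts, so small changes in them were not detectable at this depth.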
